A study of Capitella teleta with 10 samples.

Results

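The comparison described here is that of the larva at stage 4tt with the larva at stage 5 of Capitella teleta, an annelid worm whose larva does not feed. Its members are the 2 libraries of each stage, 4 of the 10 libraries of the series, chosen by the stage in their labels. They were compared over all 46409 consensus peaks of the deposited table and through the peak lists of the 4 libraries. Chromatin accessibility was measured by ATAC-seq, and the whole series runs from the 64-cell embryo over the gastrula to the larva at stages 4tt, 5 and 8. All animals were untreated, and each library held about 50000 cells pooled from whole animals, about 120 larvae of stage 4tt, 90 of stage 5 and 50 of stage 8. A library therefore averages all tissues of the larva, and more open chromatin per cell and more cells of a type that has the peak open cannot be told apart. The label of the rearing protocol describes another annelid, Owenia fusiformis, while the organism label names Capitella teleta, as used here.

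In ATAC-seq a transposase cuts DNA that is not wrapped tightly in nucleosomes and tags the cut ends for sequencing, so reads pile up over promoters, enhancers and other regulatory DNA. A peak that gains reads between stages has opened, and one that loses them has closed. For Capitella teleta the study places the onset of trunk development after gastrulation. Accessible elements are where transcription factors bind to drive developmental programmes. The value of a peak in a library is a read number that the authors scaled between libraries, called units below. Which genes lie beside the peaks was not analysed here, so peaks are given by number, scaffold and position.

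Stage 4tt was sequenced with the 64-cell embryo and the gastrula, and stage 5 with stage 8, on another instrument at another provider. Stage and sequencing batch therefore cannot be told apart in this comparison, nor in any comparison of stage 4tt with stage 8. Recovered reads within peaks numbered 27170225 and 25265314 in the stage 4tt libraries and 37932040 and 43969824 in those of stage 5, and the median peak held between 234 and 511 reads. Pearson's r of log2(value + 1) across the 46409 peaks, given as a description since the peaks share libraries, was 0.981 between the stage 4tt replicates, 0.993 between the stage 5 replicates and from 0.923 to 0.934 between the stages. Replicates lay apart by 1 or more on the log2 scale at 2287 peaks at stage 4tt and at 635 peaks at stage 5.

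From stage 4tt to stage 5 the table moved in both directions, and also as a whole. The median of all peaks rose by 0.23 on the log2 scale. Without taking this shift off, 18490 peaks opened and 9276 closed. Beyond the shift, which is the measure used from here on, 13138 peaks opened, 28.3% of those tested, and 14720 closed, 31.7% of those tested (limma, adjusted p under 0.05). Taking off the median thus moved the split from mostly opened to slightly more closed, and no peak that opened before it was closed after it. The comparison within the first batch, from gastrula to stage 4tt, had a median shift of 0.05, with 18.3% of peaks opened and 17.1% closed. The comparison within the second batch, from stage 5 to stage 8, had a median shift of 0.00, with 15.3% opened and 17.4% closed.

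Among changes of 1 or more on the log2 scale rises were the more numerous, while closing was spread over more peaks in smaller steps. The median opened peak rose 1.75-fold and the median closed peak fell 1.55-fold beyond the shift. Changes of at least 1 on the log2 scale were made by 4647 opened and 2864 closed peaks, and changes of at least 2 by 1332 opened and 368 closed peaks. The highest 1% of all peaks lay above 3.00 and the lowest 1% below −1.88. Opened peaks had a median of 151 and 155 units in the 2 stage 4tt libraries and of 326 and 314 units at stage 5. Closed peaks had a median of 784 and 771 units at stage 4tt and of 564 and 590 units at stage 5. The closed set thus stayed well above the opened set in level at both stages. Peaks called in neither direction numbered 18551, with medians of 197 and 194 units at stage 4tt and 238 and 239 units at stage 5.

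The change depended on the strength of the peak. Strength was taken as the mean log2(value + 1) over all 10 libraries, and the peaks were split by it into deciles, or into quintiles where crossed with another measure. The median peak of the weakest decile, at 8.50 units, rose by 0.76 beyond the shift, with a range from 0.62 to 0.84 over the 4 pairs of single libraries. The median change was still 0.03 in the sixth decile and was −0.31 in the strongest decile, at 2044 units, with a range from −0.31 to −0.29. Opened peaks made up 39.0% of the second decile and 10.2% of the strongest, and closed peaks 5.13% of the weakest decile and 64.2% of the strongest. Between replicates of a stage the median difference of a decile from all peaks was at most 0.06. In the strongest decile the within-batch steps gave 0.03 from gastrula to stage 4tt and −0.14 from stage 5 to stage 8, both smaller in size than the step between the batches. In the weakest decile they gave −0.66 and −0.11, so the step between the batches was the one upward step of the 3. Strength was also taken only from the 64-cell and gastrula libraries, which do not enter the comparison but share the batch of stage 4tt. The median change of the strongest quintile minus that of the weakest was then −1.03, against −0.94 with all libraries. As the batch is shared, this does not separate strength from batch. Under quantile normalisation, which gives every library the same distribution of values, this difference was only −0.10.

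**Figure D1:**
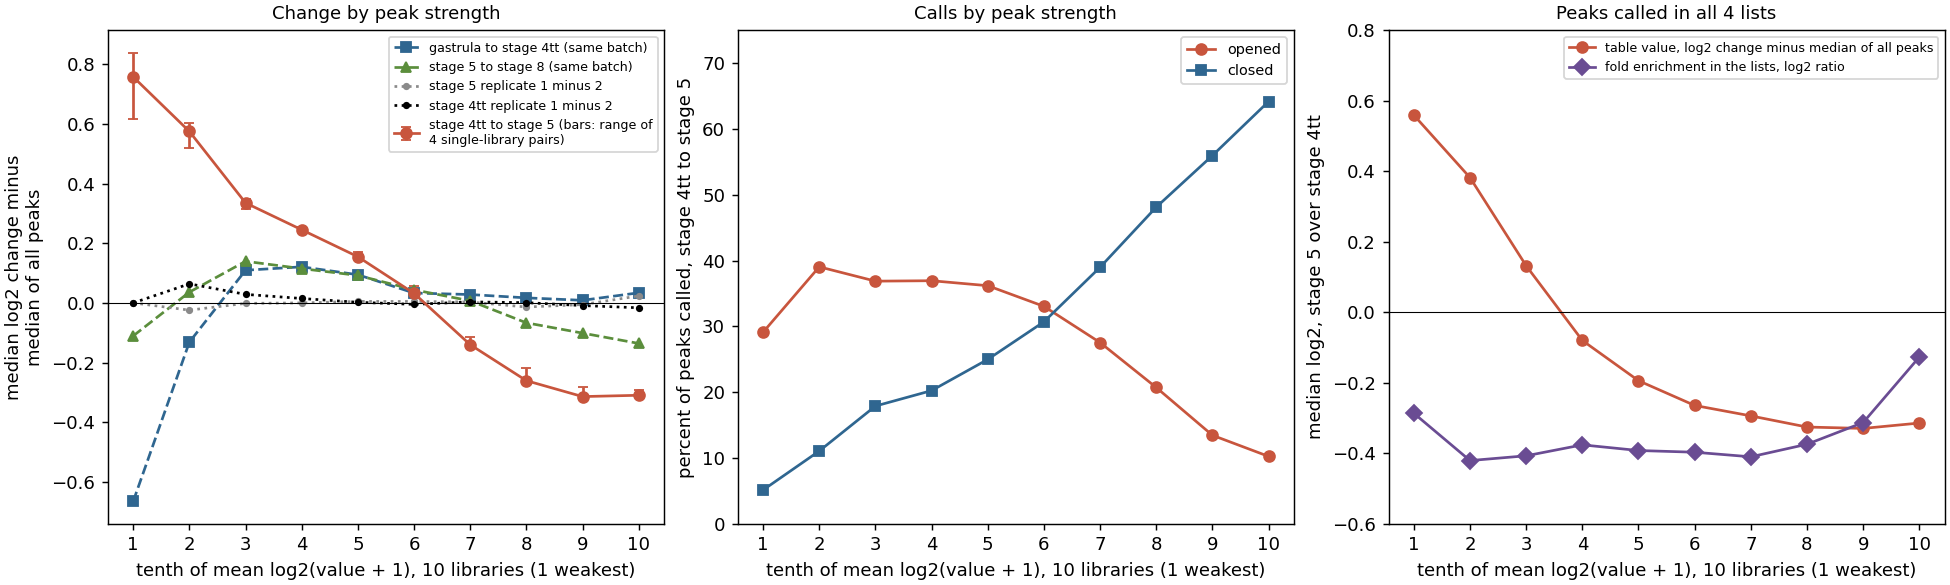
Change from stage 4tt to stage 5 by decile of peak strength (1, weakest; 10, strongest; 4640 or 4641 peaks each). Left, median log2 change minus the median of all peaks, with bars for the range over the 4 pairs of single libraries, beside the 2 within-batch steps and the differences between replicates; middle, percent of peaks opened and closed; right, for peaks called in all 4 lists, the same median change and the median log2 ratio of fold enrichment. The table values fall from 0.76 to −0.31 with strength. The fold enrichment ratios, with no median taken off, lie between −0.42 and −0.13 in all deciles.

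A low table value did not mean that the authors' peak caller found no peak. Of the 4641 peaks of the weakest decile, 47.4% overlapped a called peak in both stage 4tt lists, with a median fold enrichment of 3.72 over the local background. In the third decile, at 144 units, only 26.4% did, with a median fold enrichment of 2.93. Of the 390 peaks at 0 units in all 10 libraries, 185 were called in both stage 4tt lists and 232 in both stage 5 lists. The table and the lists therefore did not count the same reads at these peaks, and a value near 0 is given below as a table value only. Among peaks called in all 4 lists the fold enrichment at stage 5 was lower than at stage 4tt in every decile, with a median log2 ratio of −0.29 in the weakest, −0.42 in the second and −0.13 in the strongest. The rise of weak peaks in the table, 0.56 in the weakest decile over those same peaks, was thus not seen in the fold enrichment of that decile as a whole. The table change has the median of all peaks taken off, and the fold enrichment ratio has not. Over the 414 of these peaks of the weakest decile that opened, the median log2 ratio was 0.12, and 54.3% were higher at stage 5.

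Width alone separated the peaks little. The narrowest quintile, from 101 to 427 bp, had a median change of 0.12 beyond the shift, and the widest, from 1347 to 5828 bp, of −0.02. Opened peaks had a median width of 856 bp, closed peaks of 914 bp and peaks called in neither direction of 689 bp. At like strength, however, wide peaks opened more often and narrow peaks closed more often. Width was not independent of the change, since all consensus starts and ends were edges of called peaks. A peak whose calls broadened between the stages could be wide for that reason. How much of the contrast by width, or by units per kb, rests on this was not tested. In the middle quintile of strength, at a median of 334 units, 6.89% of the narrowest peaks opened and 56.8% closed, while 68.3% of the widest opened and 6.44% closed. The median change there was −0.48 in the narrowest and 0.68 in the widest peaks. The difference between the widest and the narrowest peaks had the same sign in each quintile of strength, with 0.91 in the weakest, 0.92, 1.16 and 0.86 in the next ones and 0.13 in the strongest. The last value sets 5438 wide peaks against only 15 narrow ones. Of the 1099 peaks that opened in the strongest quintile the median width was 2013 bp, against 1474 bp for the whole quintile. Of the 751 that closed in the weakest quintile it was 408 bp, against 453 bp. A peak with few units for its width is one of low read density, and by units per kb the contrast was larger than by units: 51.1% of the second quintile, at 320 units per kb, opened and 11.3% closed, while 6.74% of the densest quintile opened and 67.5% closed.

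**Figure D2:**
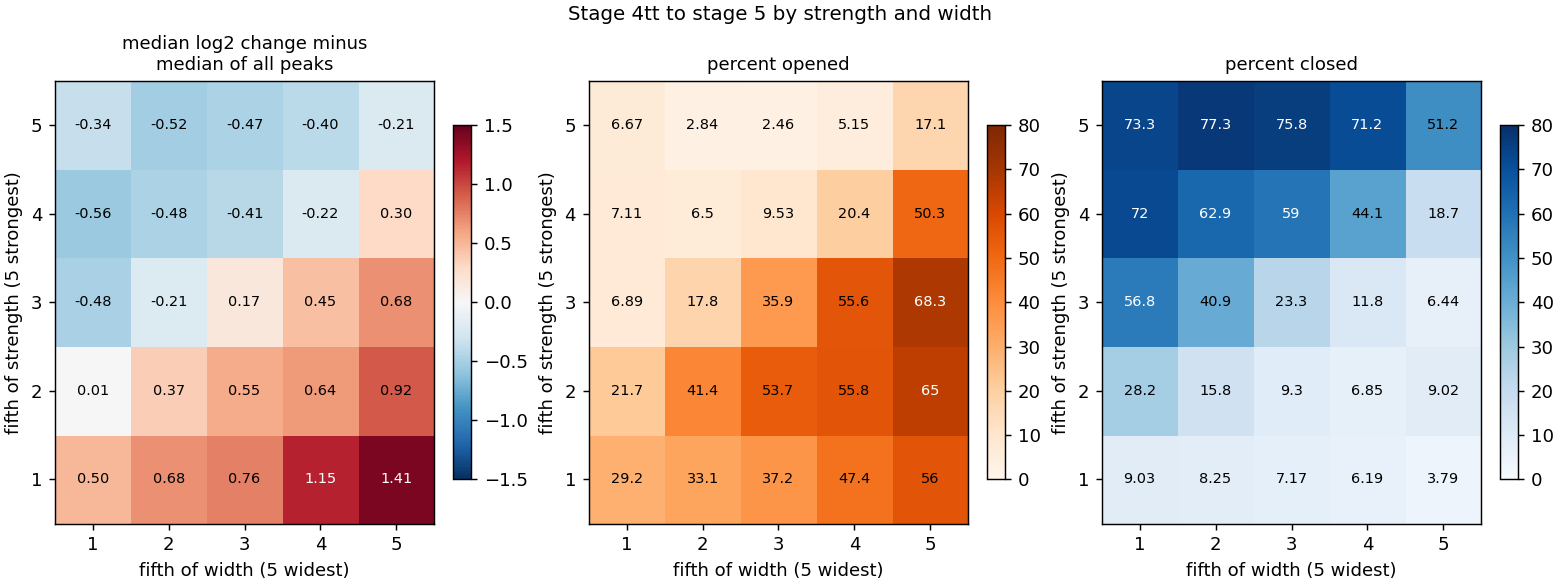
Stage 4tt to stage 5 by quintile of strength (rows, 5 strongest) and quintile of width (columns, 5 widest). Each cell gives the median log2 change minus the median of all peaks (left), the percent of its peaks opened (middle) or closed (right). Within each row the widest peaks have the highest median change, and in the middle row the percent opened goes from 6.89 to 68.3.

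The peak lists, whose edges the consensus peaks share, showed the same contrast as a change of shape. Where a consensus peak held exactly 1 called peak in each of the 4 lists, as 17680 did, the called width and summit could be followed. Over the 2000 opened ones the median called width was 475 and 482 bp at stage 4tt and 932 and 928 bp at stage 5, and 91.5% were wider at stage 5. Their median fold enrichment was about level, with 2.99 and 2.97 in the stage 4tt lists and 3.20 and 3.14 in the stage 5 lists. Over the 8799 closed ones the median width hardly differed, with 779 and 775 bp at stage 4tt and 759 and 788 bp at stage 5. The 808 of them that closed by 1 or more on the log2 scale were narrower at stage 5. Their median width was 682.5 and 689 bp at stage 4tt and 444 and 492 bp at stage 5, and 13.5% were wider there. Over all 8799 the median fold enrichment dropped from 5.44 and 5.31 to 3.68 and 3.78, and only 8.18% had a higher value at stage 5. Among these matched peaks opening thus went with broader calls and closing with lower ones, which for the larger falls were also narrower. The 6881 peaks called in neither direction were also wider at stage 5, in 69.8% of cases, and only 22.1% of them had a higher fold enrichment there. Wider and lower calls were therefore a property of the stage 5 lists as a whole, in which the median fold enrichment was 2.36 and 2.34 against 3.11 and 3.13 at stage 4tt. The distance between summits in a matched peak was 27 bp at the median between the stage 4tt replicates, 32 bp between the stage 5 replicates and 46 to 48 bp between stages. For opened peaks it was 63 to 68 bp between stages, against 37 and 38 bp within them.

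The stage 5 lists were also longer. They held 56126 and 55411 peaks over 37.0 and 37.6 Mb, and the stage 4tt lists 48004 and 45978 peaks over 26.2 and 25.8 Mb. Peaks called in both stage 5 lists and in no stage 4tt list numbered 12178, 25.4% of those supported by both stage 5 replicates. Peaks called in both stage 4tt lists and in no stage 5 list numbered 5148, 12.8% of those supported by both stage 4tt replicates. With lists cut to the same number of top peaks these became 7663 and 5984. Without stage 5 replicate 2 the first count was 18840, and without stage 4tt replicate 2 the second was 8623, as 1 list alone also holds calls that its replicate lacks. Peaks called at stage 5 only were weak, with a median fold enrichment of 1.99 against 3.17 for those called at both stages. Peaks called at stage 4tt only were narrow, at a median of 263 bp against 754 bp. Most of the former were called at stage 8 as well, 70.3% in both lists, and 33.7% had been called in an embryo or gastrula list. Of the peaks called at stage 4tt only, 14.4% were called in both stage 8 lists and 75.6% in an embryo or gastrula list.

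Calls in the lists and calls in the table pointed the same way where the lists differed. Of 7165 consensus peaks in both stage 5 lists and no stage 4tt list, 73.5% opened and 0.558% closed beyond the shift. Of 2661 in both stage 4tt lists and no stage 5 list, 74.9% closed and 0.902% opened. Most closed peaks nevertheless stayed called: 72.9% of the 14720 were in all 4 lists, against 49.8% of all consensus peaks. A further 13.5% were in both stage 4tt lists and had left both stage 5 lists, against 5.73% of all. Among the 13138 opened peaks 40.1% had entered both stage 5 lists from neither stage 4tt list, against 15.4% of all. Another 25.2% were in all 4 lists already, against the same 49.8%. Both measures come from the same libraries and are no independent evidence of each other, although at peaks with low table values they did not count the same reads.

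Spacing made little difference to the median change. Spacing was the edge-to-edge distance to the nearest consensus peak on the same scaffold. The nearest quintile, within 581 bp, had a median change of 0.05 and the farthest, beyond 3925 bp, of 0.01. Among strong peaks the isolated ones closed more often. In the strongest quintile of strength 52.4% of the peaks nearest to a neighbour closed and 14.8% opened, and of the farthest 72.4% closed and 6.70% opened. In the weaker second and middle quintiles the farthest peaks opened more often, with 45.4% and 43.0% against 37.6% and 32.0% of the nearest. Peaks alone on their scaffold numbered 3369 and rose by 0.31 at the median, with 27.1% opened and 15.4% closed. They were weak, at a median of 46.5 units, and in the weakest quintile of strength they rose less, by 0.52, than the peaks of that quintile with a neighbour, whose medians lay between 0.61 and 0.71. On scaffolds with 2 to 3 peaks the median change was 0.56, and on those with 30 or more, which hold 30768 peaks, it was −0.06.

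Neighbouring peaks changed together, and more so the closer they lay. Over 1882 pairs of neighbours less than 250 bp apart, Pearson's r of the change was 0.49, and where both were called 83.7% went in the same direction. Over 15867 pairs from 3000 to 10000 bp apart r was 0.20 and 65.9% went in the same direction, and over 363 pairs beyond 30000 bp r was 0.09 and 60.9% did. Over all 40858 pairs r was 0.25 and 68.0% went in the same direction, where 47.2% of all called peaks were opened. These are descriptions, since neighbours share libraries and each peak enters up to 2 pairs. Neighbours also resembled each other in strength, with an r of 0.62 below 250 bp and 0.28 from 3000 to 10000 bp. With the median of peaks of like strength and width taken off, r was 0.36 below 250 bp, 0.11 from 3000 to 10000 bp and 0.01 beyond 30000 bp. The order by distance was the same on scaffolds with 10 or more peaks.

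**Figure D3:**
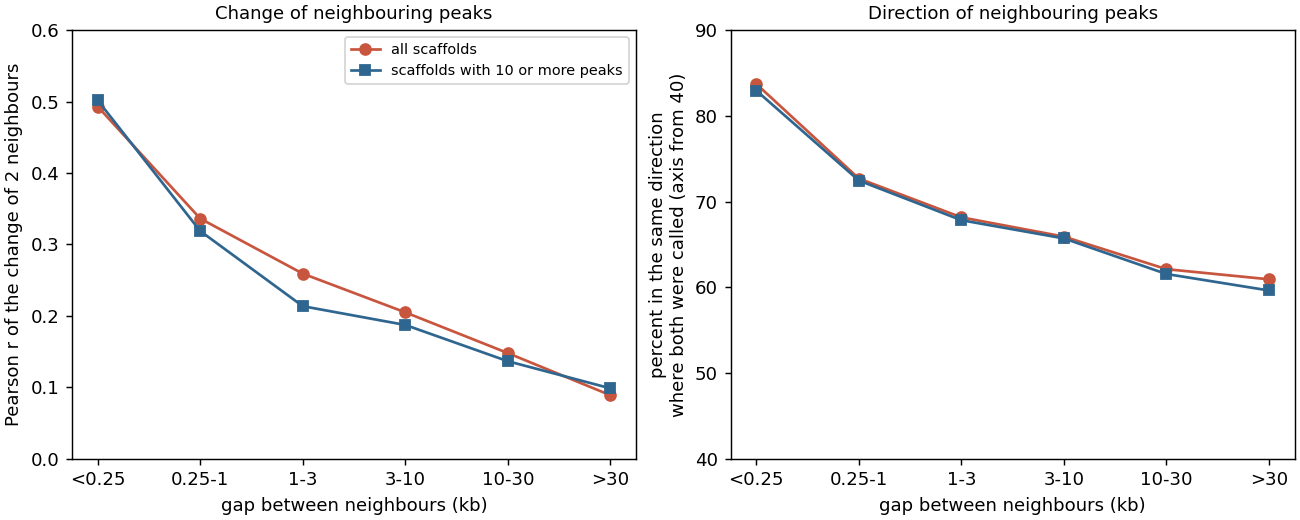
Pairs of neighbouring consensus peaks by the gap between their edges in kb. Left, Pearson's r of the log2 change from stage 4tt to stage 5 beyond the median shift; right, percent of pairs in the same direction where both peaks were called (axis from 40), for all scaffolds and for those with 10 or more peaks. Both measures fall with distance, from 0.49 and 83.7% below 0.25 kb to 0.09 and 60.9% beyond 30 kb.

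Some neighbours formed long runs. Peaks that closed in runs of 5 or more neighbours made up 17.2% of all closed peaks, in 414 runs, and peaks that opened in such runs made up 9.42% of all opened peaks, in 207 runs. The longest run of opened peaks took in all 14 peaks of scaffold 594, from 38430 to 169025. These peaks were weak, with a median strength of 5.87, where the weakest quintile reaches up to 6.69. Their summed value was 875 and 778 units at stage 4tt, 2919 and 2710 at stage 5 and 2806 and 2972 at stage 8. Embryos of 64 cells had 1066 and 1014 units and gastrulae 1195 and 1002, so the 4 later libraries lay above all 6 earlier ones. The run of 12 opened peaks on scaffold 135, from 49884 to 116438, summed to 1197 and 1128 units at stage 4tt, 2674 and 2651 at stage 5 and 3573 and 4071 at stage 8, and all 12 kept the change at stage 8. The longest run of closed peaks held 15 strong peaks on scaffold 90, from 46445 to 96503. Its sum went from 32774 and 32546 units at stage 4tt to 25753 and 25239 at stage 5 and 20082 and 20436 at stage 8. On scaffold 294, from 55549 to 101916, 14 peaks closed together, from 19344 and 18847 units over 14274 and 14223 to 10824 and 11355. All peaks of both closed runs kept the change at stage 8.

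Stage 8 kept most of the change. It shares the stage 4tt libraries of the first comparison and the batch of stage 5, so the counts describe on which side of stage 4tt the level stayed, and a kept change and a lasting difference between the batches cannot be told apart. From stage 4tt to stage 8 the median shift was 0.26, and 34.1% of all peaks opened and 35.7% closed. Of the 13138 peaks opened at stage 5, 10768 (82.0%) were also opened at stage 8 against stage 4tt, 2076 were called in neither direction and 294 were called closed. Of the 14720 peaks closed at stage 5, 12612 (85.7%) were kept, 1831 were called in neither direction and 277 were called opened. Without 1 of the stage 8 libraries the kept shares were 73.3% with either left out for opened peaks, and 80.2% and 81.7% for closed peaks. From stage 5 to stage 8, 4231 of the closed peaks (28.7%) fell further and 2002 (13.6%) rose. Of the opened peaks, 1932 (14.7%) rose further and 1399 (10.6%) fell. Over all peaks, 15.3% opened and 17.4% closed in that step. Among kept peaks, 569 closed and 279 opened ones partly reversed. The medians of single libraries at stage 8 were 336 and 349 units for opened and 514 and 540 units for closed peaks.

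The state at stage 8 differed with strength and size of change. Among opened peaks of the strongest quintile only 65.6% were kept and 13.7% were called closed at stage 8, against 87.7% and 0.438% in the second quintile. Closed peaks were kept more often the stronger they were, from 77.6% in the weakest to 89.9% in the strongest quintile. All peaks of a quintile also differed by strength. Their median change from stage 4tt to stage 8, beyond its shift, was 0.60 in the weakest, 0.46 in the second and −0.48 in the strongest quintile. How far the kept shares by strength follow this was not tested. Opened peaks with a change under 0.5 were kept in 67.0% of cases, those from 1 to 2 in 87.5% and those of 2 or more in 78.1%. The last group held 1332 peaks, which fell back by 0.51 at the median from stage 5 to stage 8 but stayed 2.15 above stage 4tt.

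**Figure D4:**
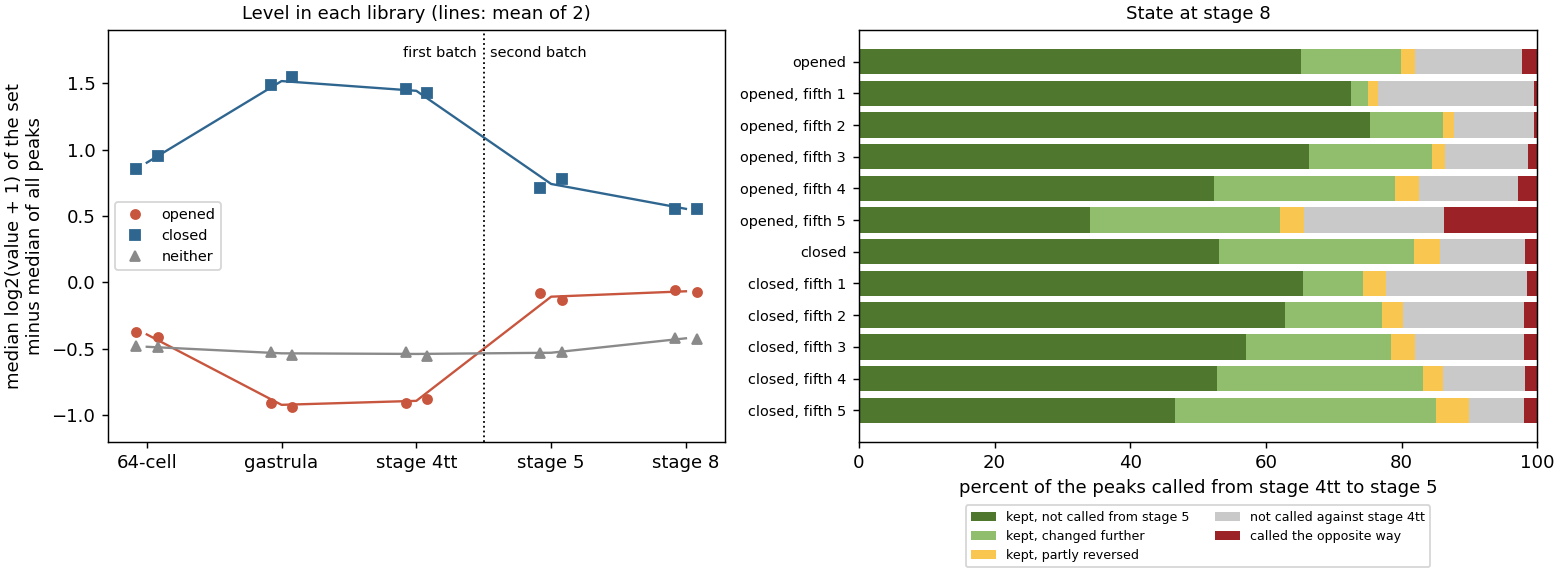
Peaks opened or closed from stage 4tt to stage 5 across the series. Left, median log2(value + 1) of each set minus the median of all peaks in each of the 10 libraries (lines, mean of 2), with the dotted line between the batches; right, state at stage 8 against stage 4tt, as percent of the opened or closed peaks, for all and by quintile of strength (1 weakest). Opened peaks lie between −0.94 and −0.88 at the gastrula and stage 4tt and between −0.13 and −0.06 at stages 5 and 8, and 82.0% of opened and 85.7% of closed peaks were kept.

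The libraries outside the 2 stages compared, which still share in the fit's estimate of the spread, showed where the opened and closed peaks had been before. Relative to the median of all peaks in the same library, the 64-cell libraries had the opened peaks at −0.37 and −0.41 and the gastrula libraries at −0.91 and −0.94. Stage 4tt followed with −0.91 and −0.88, and stage 5 with −0.08 and −0.13. As a whole set they had thus already been higher in the 64-cell embryo than in the gastrula, within 1 batch. The 4647 that opened by 1 or more had not, with −2.23 and −2.19 in 64-cell and −2.16 and −2.31 in gastrula libraries. Those opened in the strongest quintile lay at 1.96 and 1.96, against 1.86 and 1.93. The whole set of closed peaks rose, from 0.86 and 0.95 in 64-cell embryos up to 1.49 and 1.54 in gastrulae. They were at 1.46 and 1.43 in stage 4tt larvae and at 0.71 and 0.78 in stage 5 larvae. Between the gastrula and stage 8, of which neither library entered the comparison, 72.2% of the peaks opened at stage 5 were opened and 5.88% closed, where 37% of all peaks opened. Of the peaks closed at stage 5, 74.4% were closed and 7.68% opened, where 36.1% of all peaks closed. This comparison was added after the data were seen, and it too sets the first batch against the second.

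Single peaks were named by rule, 38 in all, by size of change, strength, width and state at stage 8. The first 6 were the largest rises with means of at least 20 units at both stages, and the one with the closest replicates was peak 21475, 436 bp on scaffold 3113 from 8208 to 8643. It had 33.9 and 51.2 units at stage 4tt and 860 and 776 at stage 5, a rise of 4.03 beyond the shift (SE 0.26, adjusted p = 1.42e-07). At stage 8 it had 207 and 225 units, so most of the rise was gone, though it stayed 2.08 above stage 4tt. Peak 14456, on scaffold 221 from 41446 to 42530, rose from 34.0 and 8.57 units to 395 and 375, by 4.17 (SE 0.46, adjusted p = 1.37e-05), and was at 208 and 227 at stage 8. It had been between 25.2 and 52.2 units in the 4 earlier libraries, so stage 5 stood above all of these. Peak 12961, on scaffold 204 from 27686 to 29235, went from 42.8 and 4.87 units to 705 and 769 and to 601 and 599.9 at stage 8, a rise of 5.29 (SE 0.97, adjusted p = 0.00565). Its 64-cell libraries held 206 and 246 units, so the stage 4tt libraries were the lowest of the series. Replicates at stage 4tt lay far apart in 5 of these 6 rises, peak 21475 being the exception. Without stage 4tt replicate 1 or 2, the rise of peak 14456 was 5.11 or 3.24, and that of peak 12961 was 6.75 or 3.85. Peak 15677, at 101 and 2.43 units, gave 7.83 or 2.94, peak 38371, at 247 and 54.3 units, 5.14 or 2.98, and peak 20072, at 38.6 and 2.46 units, 5.75 or 2.23. Peak 15677 was no longer called without stage 5 replicate 1 (adjusted p = 0.108) or 2 (0.104), and likewise peak 20072 (0.0802 and 0.0713).

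Of the 6 largest falls with means of at least 20 units at both stages, 5 were followed by a rise called from stage 5 to stage 8. Among all peaks closed by 2 or more, 27.7% had such a rise, and 15.3% of all peaks opened in that step. The 6 were chosen by a fall that uses the same stage 5 libraries, so the later rise is a description. Peak 15085, 475 bp on scaffold 23 from 240639 to 241113, went from 864 and 1045 units at stage 4tt to 132 and 105 at stage 5, where it fell by 3.23 beyond the shift (SE 0.17, adjusted p = 3.90e-08). It recovered to 307 and 322 units at stage 8, still below both stage 4tt libraries, and it had been lower, between 326 and 469 units, before stage 4tt. Peak 40014, 807 bp on scaffold 7370 from 9 to 815, fell from 276 and 296 units to 32.3 and 33.6, a change of −3.31 (SE 0.19, adjusted p = 7.86e-08), and stood at 86.5 and 91.4 at stage 8. Peak 43547, on scaffold 8653 from 147 to 926, fell from 567 and 818 units to 67.2 and 81.0, a change of −3.42 (SE 0.34, adjusted p = 4.58e-05), and returned to 292 and 277. Peak 24645 went from 562 and 484 units over 66.2 and 34.4 to 737 and 539, but its fall was not called without any 1 of the 4 libraries, with adjusted p from 0.0511 to 0.0967. Peak 1445 was not called without stage 4tt replicate 1 (adjusted p = 0.0672) or either stage 5 replicate (0.0822 and 0.0769).

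At some peaks the table held next to no reads at 1 of the stages. At most 3 reads over both stage 4tt libraries and at least 50 units at stage 5 were found at 40 peaks, all called opened, and the reverse at 36 peaks, 35 of them called closed. Of the opened ones 20, and of the closed ones 17, were the only peak of their scaffold. Peak 5473, 411 bp on scaffold 1336 from 51689 to 52099, had 0 units in all 6 libraries of the first batch, 199 and 269 at stage 5 and 139 and 204 at stage 8. Against a floor of 3 reads over the 2 stage 4tt libraries, its stage 5 level was at least 133-fold higher, before the median shift was taken off. Peak 24213, on scaffold 3555 from 439 to 1509, had 0 and 1.22 units at stage 4tt, which is 1 read in all, 490 and 535 at stage 5 and 284 and 378 at stage 8. Both peaks thus differed between the batches, with at most 6.87 units in any library of the first, and no stage 4tt list held either. Peak 18822 had 0 units in both stage 4tt libraries and 243 and 235 at stage 5, yet both stage 4tt lists held a called peak there.

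Peaks that fell to 0 had been open in the first batch, and some were restricted in time. Peak 25011, 332 bp on scaffold 37 from 182528 to 182859, had 83.9 and 60.4 units in 64-cell embryos, 92.9 and 226 in gastrulae, 209 and 245 in stage 4tt larvae, and 0 in all 4 libraries of stages 5 and 8. Its stage 4tt level was at least 207-fold higher than the floor of 3 reads over the 2 stage 5 libraries. The largest fall was that of peak 34627, on scaffold 575 from 100709 to 101364, which had 280.2 and 384 units at stage 4tt, 0 in both stage 5 libraries and 1.03 and 0 at stage 8, at least 302-fold higher at stage 4tt than the same floor. Peak 3322, on scaffold 1178 from 5354 to 5970, followed the same course from 189.5 and 171 units at stage 4tt to 0 in the 4 later libraries. Peak 552, on scaffold 100 from 244830 to 245128, was high at stage 4tt alone, with 216 and 229 units, between 1.24 and 32.9 in the 4 libraries before and 0 in the 4 after. At stage 4tt these 4 peaks were called in both lists, and none was called in a stage 5 list. Of the 35 peaks near 0 at stage 5 and closed, 24 had a mean under 10 units at stage 8 too and 6 one of 50 or more.

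A few peaks near 0 at 1 stage did not follow the batch, since stage 8 differed from stage 5. Peak 19380, 1198 bp on scaffold 2847 from 7574 to 8771, had 174 and 115 units at stage 4tt, 0 in both stage 5 libraries and 95.8 and 121 at stage 8, so it fell by 7.39 and then rose by 6.76. Peak 20008, on scaffold 2935 from 2712 to 3336, went from 107 and 222 units over 0 and 3.35 to 181 and 187, with a change to stage 5 of −6.45 that was −5.38 without stage 5 replicate 1 and −7.51 without replicate 2. In the opposite direction, peak 42214, on scaffold 8154 from 1190 to 1985, had 0 units in both stage 4tt libraries, 66.7 and 50.3 at stage 5 and 0 in both stage 8 libraries. Peak 20941, on scaffold 304 from 234229 to 234580, had 0 and 2.46 units at stage 4tt, 273 and 324 at stage 5 and 0.514 and 1.58 at stage 8. Its rise of 7.09 was 8.00 without stage 4tt replicate 2, and it was 6.21 and not called without stage 4tt replicate 1 (adjusted p = 0.074), nor called without stage 5 replicate 2 (0.0506). These 4 peaks were chosen among the 500 largest rises or falls for their return at stage 8, so the return is a description. Replicates of 1 stage could also lie far apart. The gastrula libraries had 137 and 1.25 units at peak 20941 and 28.1 and 1.23 at peak 42214. At peaks 19380 and 20008 they were closer, with 424 and 559 and with 96.0 and 120 units.

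The strongest peaks of the table fell. Peak 13150, 2237 bp on scaffold 2067 from 10269 to 12505, had 618327 and 633302 units at stage 4tt and 148253 and 166577 at stage 5, where it fell by 2.23 beyond the shift (SE 0.13, adjusted p = 7.58e-05). It rose again to 305803 and 327519 units at stage 8. Peaks 15319 and 16955, the next in strength, ran in parallel: in all 10 libraries they held between 52.5% and 55.9% and between 48.9% and 53.1% of the units of peak 13150. Together the 3 took 13.2% and 10.6% of the units of the 64-cell libraries, and 6.07% and 6.54% of those of the gastrula libraries. Their share was 4.20% and 4.30% in stage 4tt larvae, 0.997% and 1.15% in stage 5 larvae and 2.12% and 2.23% in stage 8 larvae. They lie on 3 scaffolds of 3 to 5 peaks each, and whether they are copies of 1 sequence was not tested. Under quantile normalisation, which ties the top ranks to fixed values, their change was −0.01 and none was called.

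Of the 3 strongest peaks that opened, 2 rose by little. Peak 43141, 2535 bp on scaffold 85 from 369896 to 372430, went from 7416 and 7234 units to 10930 and 9701, a rise of 0.26 beyond the shift (SE 0.06, adjusted p = 0.0022), and stood at 9655 and 9027 at stage 8. Peak 36975, 4493 bp on scaffold 638, rose from 8988 and 9382 to 12682 and 11852 units, by 0.18 (SE 0.05, adjusted p = 0.00802), but fell at stage 8 to 7129 and 6713, below stage 4tt. It was not called without stage 4tt replicate 1 (adjusted p = 0.0675) or stage 5 replicate 1 (0.0792). The other one, peak 9055 on scaffold 16593 from 8 to 1179, went from 3229 and 1226 units to 15282 and 13524 and stood at 14971 and 17037 at stage 8. Its rise was 2.62 (SE 0.57, adjusted p = 0.0112), between 1.93 and 3.33 without single libraries, and it was not called without stage 5 replicate 1 (adjusted p = 0.0600). The widest peak that opened, peak 25094, spans 5759 bp of scaffold 37 from 714967 to 720725. It had 1018 and 1038 units at stage 4tt, 2445 and 2369 at stage 5 and 2830 and 2951 at stage 8, a rise of 0.99 (SE 0.07, adjusted p = 3.15e-07), and its 64-cell level of 1802 and 1863 units also lay above the gastrula, at 811 and 871. Among the wide peaks that closed, peak 35722, 5458 bp on scaffold 60 from 382430 to 387887, fell step by step from 9368 and 9714 units at stage 4tt over 8423 and 8417 at stage 5 to 5188 and 5170 at stage 8. Its change to stage 5 of −0.41 was −0.10 and no longer called (adjusted p = 0.0836) with the median taken within bins of strength. The widest, peak 20690, had 4227 and 4301 units at stage 4tt and 4664 and 4331 at stage 5, so it closed only relative to the median of all peaks. Its change of −0.16 turned to 0.15 when the median was taken within bins of strength, and it was not called without either stage 4tt replicate (adjusted p = 0.0859 and 0.141) or without stage 5 replicate 2 (0.221).

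**Figure D5:**
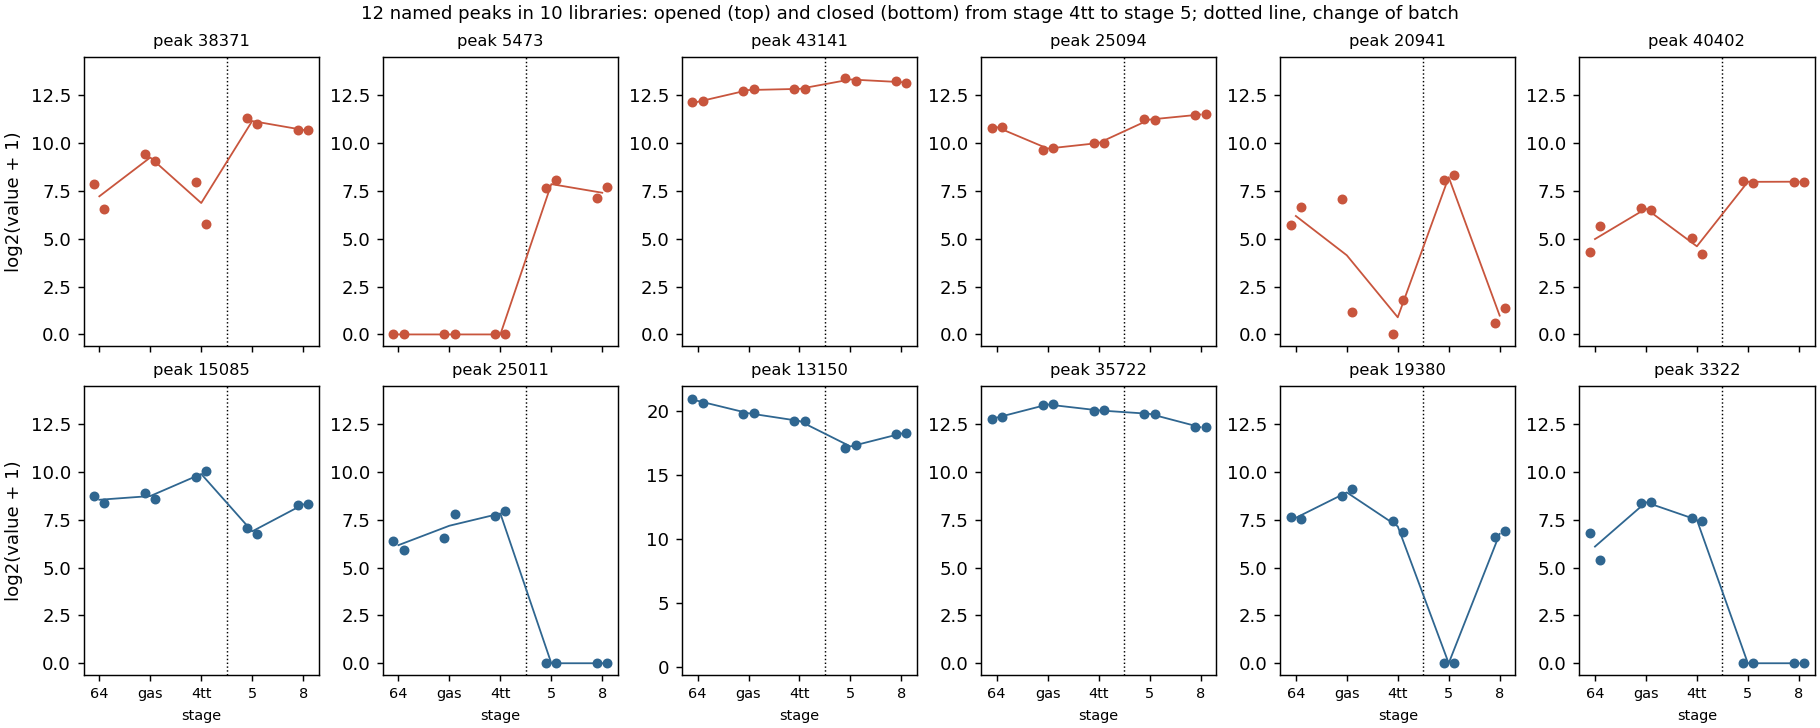
Log2(value + 1) of 12 named peaks in the 10 libraries (points, single libraries; lines, mean of 2), opened in the top row and closed in the bottom row. The horizontal axis gives the stage (64, 64-cell embryo; gas, gastrula) and the dotted line the change of batch, and the panel of peak 13150 has a longer vertical axis. Peak 5473 is at 0 in all 6 libraries before stage 5, peaks 25011 and 3322 are at 0 in all 4 from stage 5 on, and peaks 20941 and 19380 return at stage 8.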

How the data were processed

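The members of the comparison, the bins and the rule for named peaks were chosen with earlier results of these data known. Per the labels and the methods of the study, the authors made 2 biological replicates per stage, mapped read pairs with NextGenMap, removed duplicates and shifted reads for the transposase. Peak calling with MACS2 2.2.7.1 was run library by library, and consensus peaks came from calls reproducible between replicates, without repetitive regions. The genome build of the mapping was not given in the sources used here, and positions follow the deposited files, with starts counted from 1. The deposited table holds 1 signal value per consensus peak and library, read numbers that the authors normalised with DiffBind and DESeq2. In the deposited lists each peak has a fold enrichment (a ratio), a −log10 p-value and −log10 q-value, a score, and a summit offset. The lists were not pooled over replicates.

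Log2(value + 1) of all 10 libraries was fitted with limma 3.58.1 (R 4.3.3; trend, robust, no covariates). For each comparison the median log2 change of all peaks was taken off each change, the remainder was tested two-sided, and p-values were adjusted by Benjamini and Hochberg over 46409 peaks. Opened or closed means an adjusted p under 0.05 with any fold. The 1 added to each value shrinks the changes of weak peaks. Replicates were averaged on the log2 scale, so 1 replicate near 0 can enlarge a change. A change was kept at stage 8 where stage 8 against stage 4tt was called in the same direction. Bins of strength, width and spacing were described without a test, since peaks are not replicates and 2 libraries against 2 cannot go below an exact p of 0.333. Lists were compared with bedtools 2.31.1, any overlap counting.

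Each table value was a whole number of reads times a factor that changed smoothly with the level. Within 0.1 reads, 99.99% of 18515 values of 1 to 50 reads and 99.8% of 40231 values of 51 to 200 reads in the stage 4tt and stage 5 libraries came out whole. Reads are therefore approximate for high values, cover consensus peaks only, and were tested with edgeR 4.0.16 as an alternative, chosen after seeing the data like the centring by strength and width, the strength per kb and the filter at 100 units. On these reads edgeR called 15044 peaks opened and 16488 closed. Floors cover counting error only. The fit was tested on simulated data.

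Named peaks were the 6 largest rises and falls among called peaks with at least 20 units at both stages and non-overlapping libraries, the 3 largest with less at 1 stage, the 3 strongest, the 2 widest, and, among the 500 largest, the 3 with the largest return and the 3 with the smallest change at stage 8, with the 2 longest runs per direction.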

Additional observations from a re-analysis of the deposited data

How the results depend on the processing

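Counts of opened and closed peaks stayed within 1.5 times of 13138 and 14720 under all alternatives of scaling, centring, filter, samples and test, with 9026 to 10900 and 11290 to 12460 without single libraries, and fell to 4647 and 2864 with a minimum change of 1. The fit with the replicate number as a block called 13087 and 14757. The numbers do not pair the libraries, since the deviations of same-numbered stage 4tt and stage 5 libraries had a correlation of −0.01. The edgeR test called 99.3% of the opened and 99.8% of the closed peaks too, and centring within strength and width 56.3% and 59.6%, in the same direction.

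The opened share of calls, 47.2%, was 48.8% with a pseudocount of 8, 49.2% with quantile normalisation, 49.7% with centring within 20 bins of strength, 61.9% with a minimum change of 1, and 44.4% to 47.0% without single libraries. The kept share of opened peaks, 82.0%, was 81.9% with a pseudocount of 8, 84.0% for peaks of at least 50 units, 81.8% with TMM, 77.0% with quantile normalisation, 76.6% and 72.0% with centring by strength and by strength and width, 81.2% with only the stages compared, 81.7% with the replicate block, 82.6% with edgeR, 73.3% with a minimum change of 1, 85.8% when at least 50% of the change had to remain, and 73.3% to 86.4% without single libraries. The kept share of closed peaks, 85.7%, was 81.6%, 81.2% and 80.3% with quantile normalisation and the 2 centrings, 78.2% with a minimum change of 1, 86.8% when at least 50% had to remain, and 80.2% to 89.5% without single libraries.

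The difference between the strongest and the weakest quintile, −0.94, was −1.03 with strength from the early libraries, −0.67 with a pseudocount of 8, −0.10 with quantile normalisation, −1.11 with strength per kb, −0.64 for peaks of at least 100 units, and −0.95 to −0.86 without single libraries. That between the widest and the narrowest quintile, −0.14, turned to 0.32 with quantile normalisation and to 0.91, 0.92, 1.16, 0.86 and 0.13 within the quintiles of strength, and was −0.15 to −0.10 without single libraries. By spacing it was −0.044, −0.091 by centre-to-centre distance, −0.093 on scaffolds with 10 or more peaks, and −0.061 to −0.026 without single libraries. Peaks called at stage 5 only, 12178, were 7663 with equal lists, 7952 with a −log10 q of at least 5, and 14328 to 18840 without single lists, and those called at stage 4tt only, 5148, were 6074 to 8623. Peak 20690 turned from −0.16 to 0.12 with quantile normalisation and to 0.15 and 0.058 with the 2 centrings. Of 489 values of the 38 named peaks under the alternatives, 444 kept call and direction, but 15 of the 38 lost their call under at least 1 alternative. The cause of these differences was not tested. With 2 libraries per stage and 1 batch per stage, precision is limited by the libraries, and at peaks of few reads by the reads as well.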
